A study of Mus musculus with 12 samples.

Results

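Adhesion G protein-coupled receptors and orphan-type receptors were followed across cultures of mouse subventricular zone cells. The set holds every protein-coding gene of the count table whose GENCODE M21 symbol starts with Adgr, a letter and a digit or with Gpr and a digit, apart from Gpr17. These were 99 of the 55401 genes listed, 27 with an Adgr symbol (adhesion receptors) and 72 with a Gpr symbol. The Gpr symbols are historical: some of these receptors now have a known activating ligand or ion, and a few of the proteins sit in internal membranes and may not act as receptors at all.

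The cultures came from CD1 mice, and RNA was sequenced from 3 groups of 4 cultures, which the study describes as grown from 4 independent litters. Postnatal neural stem cells (NSC) were neurospheres from pups aged 0 to 2 days, and adult NSC were neurospheres from mice aged 2 months. Both were grown for 6 to 7 days without serum, with 2% B27, FGF at 10 ng/mL, EGF at 20 ng/mL and heparin at 2 µg/mL. Postnatal oligodendrocyte precursor cells (OPC) were made from the neurospheres of pups: the spheres were dissociated and the cells kept as a monolayer for 2 days with 2% B27, FGF at 10 ng/mL and PDGF-AA at 10 ng/mL. The OPC therefore differed from both NSC groups in growth factors, growth form and time in culture as well as in cell type. From adult NSC they differed in the age of the mice too. None of these can be told apart. The labels name no transgene and no drug treatment for any group.

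G protein-coupled receptors cross the membrane with a bundle of helices and pass signals to G proteins, arrestins and their kinases. Adhesion receptors carry, in addition, a very long extracellular part that binds matrix proteins or proteins of neighbouring cells, and most are cut next to a tethered peptide that can activate them. In the oligodendrocyte lineage, Adgrg1 (GPR56) is known to keep precursors dividing, whereas orphan receptors are those for which no natural ligand is generally accepted.

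Library totals ran from 38928989 to 54801726 counts in postnatal NSC, from 16756231 to 20064043 in adult NSC and from 17226501 to 23651396 in OPC. Levels are given as counts per 1e6 counts (CPM), scaled by edgeR's TMM factors. All 7 OPC markers tested (such as Pdgfra and Cspg4) were called higher in OPC than in adult NSC and 5 of 7 higher than in postnatal NSC, with summed levels of 9530 to 12000 CPM in OPC against 5000 to 6100 in postnatal and 5030 to 5350 in adult NSC. The mean log2(CPM + 0.5) of the 7 genes was 9.45 to 10.2 in OPC, 8.26 to 8.53 in postnatal NSC and 6.93 to 7.17 in adult NSC. All 7 NSC markers were present in each group. They summed to 2230 to 3820 CPM in OPC, 5970 to 6320 in postnatal NSC and 6870 to 7360 in adult NSC. In OPC 4 of the 7 were lower and 1 higher than in postnatal NSC. Against adult NSC 3 were lower and 3 higher. Postnatal NSC library 3 and OPC library 2 stood apart: the mean log2(CPM + 0.5) over 15 DNA replication genes was 5.08 and 4.58 there and 6.08 to 6.74 in the other 10 libraries. Calls of the receptors described below that were gained or lost without either library are given beside their values. In bulk RNA, fewer cells of a type and less RNA per cell cannot be told apart.

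Of the 99 genes, 47 passed a filter on low counts (13 adhesion, 34 other) among 16135 genes tested, and 52 did not. At least 10 CPM on average was reached by 27 genes in postnatal NSC, 23 in adult NSC and 24 in OPC. Adhesion genes took most of the reads of the set: their summed mean level was 1890 CPM in postnatal NSC, 1637 in adult NSC and 1829 in OPC, against 522.4, 429 and 518 CPM for all 72 other genes. Of the 52 that did not pass, 13 had no count in any library (3 of them adhesion receptors) and 17 of the 99 genes had 1 to 20 counts over all 12 libraries. The highest group mean among those that did not pass was 0.843 CPM, for Adgrd1 in postnatal NSC. Genes such as Gpr149, Gpr21, Gpr27 and Gpr83 passed through a single group in which all libraries were above the limit, so that a difference was built into their passing.

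Per kilobase of exon, the order of levels was led by the same gene in each group. Adgrg1 stood at 140.3 ± 16.1 CPM per kilobase (SD, n = 4) in postnatal NSC, 90.7 ± 4.37 in adult NSC and 108.0 ± 5.07 in OPC. Its libraries did not overlap those of the next gene, Adgrb2, which stood at 37.3 ± 4.26, 26.4 ± 1.61 and 31.3 ± 5.72 CPM per kilobase. Adgrl1 came next in each group, with 24.4 ± 1.11, 21.1 ± 1.34 and 30.1 ± 2.92 CPM per kilobase, and in OPC its libraries overlapped those of Adgrb2. Below these the order differed: ranks 4 and 5 were taken by Adgrb1 and Gpr19 in postnatal NSC, by Adgrl2 and Gpr37l1 in adult NSC, and by Adgrb1 and Adgrl3 in OPC. When the longest transcript was used as the length in place of all exons, Adgrg1 stayed first, while Adgrl3 moved to rank 2 in OPC and Adgrl2 to rank 2 in adult NSC.

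The results on adhesion receptors turn on 5 genes. On GRCm38, Adgrg1 (ENSMUSG00000031785.16) lies at chr8:94974751-95014217 on the plus strand, Adgrb1 (ENSMUSG00000034730.17) lies at chr15:74516195-74589465 on the plus strand, Adgrl3 (ENSMUSG00000037605.16) lies at chr5:81020138-81825133 on the plus strand, Adgrg6 (ENSMUSG00000039116.7) lies at chr10:14402583-14545659 on the minus strand, and Adgre5 (ENSMUSG00000002885.14) lies at chr8:83723251-83741326 on the minus strand. Among the others, Gpr149 (ENSMUSG00000043441.5) lies at chr3:62529077-62605140 on the minus strand, Gpr75 (ENSMUSG00000043999.6) lies at chr11:30885358-30893729 on the plus strand, Gpr85 (ENSMUSG00000048216.13) lies at chr6:13834458-13839942 on the minus strand, and Gpr179 (ENSMUSG00000070337.4) lies at chr11:97332109-97352077 on the minus strand. Where a gene's exons overlap exons of another gene, its level is less certain: opposite another gene lie 41.6% of the exonic bases of Gpr25, 39.5% of those of Gpr84, 27.9% of those of Gpr89 (Gja5 and Pdzk1), 23.8% of those of Adgre5 (Ddx39), 15.6% of those of Adgrl1, 15.4% of those of Gpr137 (Bad) and 8.91% of those of Adgrl3, and Gpr137b shares 28.6% of its stretches of 50 bases with a pseudogene copy.

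The promoters of 4 genes called different between the groups are shown, as the 250 bases before the RefSeq start (GRCm38.p6), written 5′ to 3′ on the strand of the gene. They belong to the genes that, among the rises and the falls of each comparison, ranked first of those with a RefSeq window lying wholly outside the gene as GENCODE draws it, and the change of Gpr63 was small (0.65 ± 0.24 with age). The RefSeq start lay 279 bases before the GENCODE start for Gpr179 and 353 bases before it for Gpr63. For Gpr75 and Gpr85 the 2 starts were the same. Capitals mark matches on either strand to 6 motifs, a TATA box, CCAAT box, GC box, E-box, AP-1 site and cyclic AMP response element, whose letters follow the sequences. The Gpr179 promoter lies at chr11:97352357-97352606 on the minus strand, the Gpr63 promoter at chr4:24965804-24966053 on the plus strand, the Gpr75 promoter at chr11:30885108-30885357 on the plus strand and the Gpr85 promoter at chr6:13839943-13840192 on the minus strand.
Gpr179: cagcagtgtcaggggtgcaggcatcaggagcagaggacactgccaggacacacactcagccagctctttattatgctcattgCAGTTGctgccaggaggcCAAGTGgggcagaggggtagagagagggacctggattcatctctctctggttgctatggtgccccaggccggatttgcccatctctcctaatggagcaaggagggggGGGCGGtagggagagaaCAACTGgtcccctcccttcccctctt
Gpr63: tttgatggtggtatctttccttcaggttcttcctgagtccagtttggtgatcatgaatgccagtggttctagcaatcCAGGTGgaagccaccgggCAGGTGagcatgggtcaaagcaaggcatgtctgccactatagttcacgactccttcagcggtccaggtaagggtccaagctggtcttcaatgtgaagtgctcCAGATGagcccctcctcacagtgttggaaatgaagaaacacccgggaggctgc
Gpr75: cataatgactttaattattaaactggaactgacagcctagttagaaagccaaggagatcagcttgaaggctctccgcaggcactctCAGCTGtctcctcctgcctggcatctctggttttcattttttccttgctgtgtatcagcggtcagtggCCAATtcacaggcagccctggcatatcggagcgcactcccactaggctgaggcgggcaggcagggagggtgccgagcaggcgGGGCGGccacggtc
Gpr85: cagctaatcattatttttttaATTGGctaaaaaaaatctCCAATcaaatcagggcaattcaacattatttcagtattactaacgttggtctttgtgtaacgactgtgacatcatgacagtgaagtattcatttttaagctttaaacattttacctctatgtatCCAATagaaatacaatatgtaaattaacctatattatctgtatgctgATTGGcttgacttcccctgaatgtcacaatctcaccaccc
Gpr85 has 32% G and C and 2 CpG pairs, against 52.4% and 4 pairs in Gpr63, 56% and 9 pairs in Gpr75 and 58.8% and 2 pairs in Gpr179. Gpr85 holds 4 CCAAT boxes, 2 on each strand. A GC box was found in the windows of Gpr179 and Gpr75 and not in those of Gpr63 and Gpr85. A RefSeq start was listed for 72 of the 99 genes, with 92 windows in all. The GC box, searched as GGGCGG, was found in 27 of the 52 windows of genes that passed the filter (51.9%) and in 9 of the 40 windows of genes that did not (22.5%), against 32.7% of all 32851 windows listed. The median number of CpG pairs was 14, 3 and 6 in these 3 sets. The CCAAT box, searched by those letters, was found in 33.8% of all windows. The E-box, searched as CANNTG, was in 66.2% of all windows. The TATA box, searched as TATAAA, was in 12.4% of them. The AP-1 site, searched as TGANTCA, was in 6.75% of them, and the cyclic AMP response element, searched as TGACGTCA, was in 1.55%. Matches to different motifs can overlap. A match is a string of letters and not a measured binding site.

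Genes were compared with edgeR's quasi-likelihood test and Benjamini-Hochberg adjustment over all genes tested, and a gene was called at an adjusted p under 0.05. Log2 fold changes are given ± their standard error (SE), from all 12 libraries fitted together. The 3 comparisons share libraries, so their results are given side by side and not as support for each other. Between adult and postnatal NSC, 24 of the 47 genes fell with age and 5 rose, while 27.9% of all tested genes fell and 25.2% rose (53.1% called in either direction). The median log2 fold change was -0.50 over the 47 genes and -0.03 over all genes. Of the 34 other receptors 19 were lower and 1 was higher, whereas of the 13 adhesion receptors 5 were lower and 4 higher. Between OPC and postnatal NSC, 11 of the 47 were higher in OPC and 14 lower, against 22.4% and 22.7% of all genes (45.1% in either direction), and the medians were 0.04 and -0.01. Between OPC and adult NSC, 21 of the 47 were higher in OPC and 8 lower, against 26.3% and 24.7% of all genes (51.0% in either direction), with medians of 0.25 and 0.01. Among the 41 genes with a mean of at least 1 CPM over all libraries, 21 fell and 5 rose with age, against 28.0% and 26.5% of the genes that passed the same limit. That limit kept Gpr149 and Gpr27, which passed the filter through a single group and fell with age. With every library thinned to the smallest total, 23 fell and 5 rose with age, and the share of all genes called in that run is not given here. No test compared the receptors with other genes. With age, 4 of the 7 OPC markers fell and none rose (median log2 fold change -0.76), and all 6 tested genes of myelin and mature oligodendrocytes fell (median -3.88). Their part in the falls of the receptors was not tested. The 5 rises with age were the least stable count: leaving out 1 library gave 2 to 5, with 2 without adult NSC library 4 or postnatal NSC library 2 and 3 without postnatal NSC library 3, OPC library 1 or any 1 of adult NSC libraries 1 to 3.

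**Figure D1:**
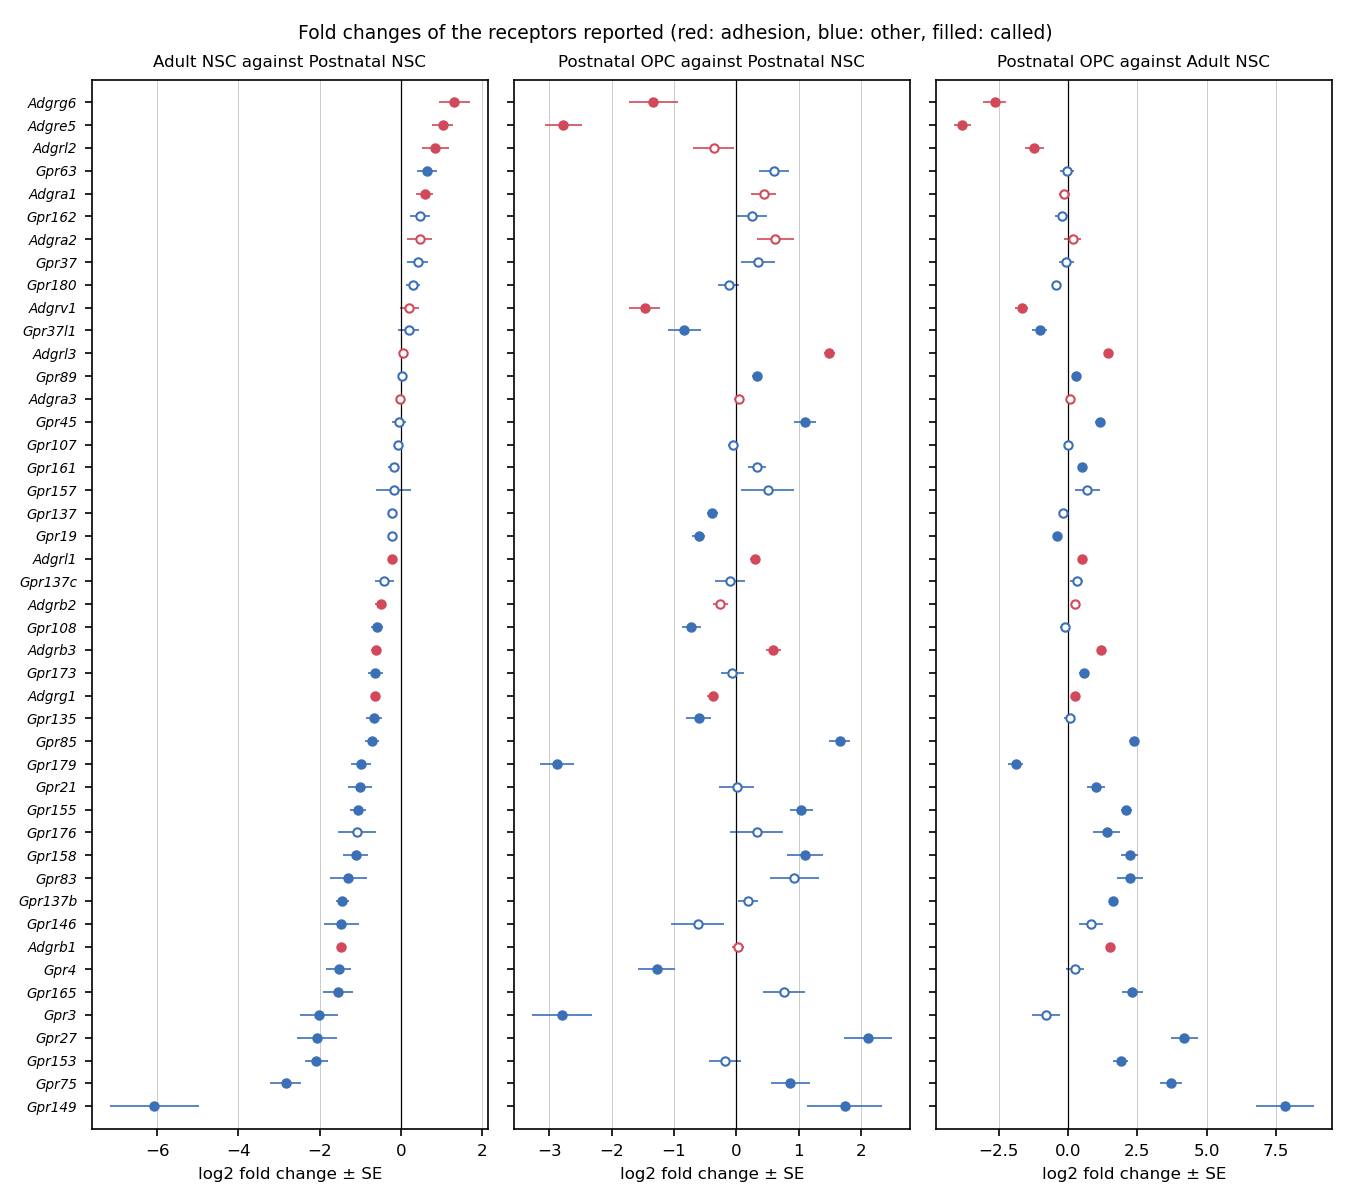
Log2 fold change ± SE (x axes) of 45 receptors that passed the filter (rows), in the 3 comparisons; red points are the 13 adhesion receptors, blue points 32 others, and filled points were called. In the comparison of adult with postnatal NSC, 23 filled points lie left of 0 and 5 right of it.

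Adgrg1, the receptor for collagen III and transglutaminase 2, was the most abundant gene of the set in all cultures and highest in postnatal NSC. The postnatal NSC libraries stood at 724, 848, 815 and 656 CPM, the adult NSC libraries at 502, 457, 500.3 and 508 and the OPC libraries at 604, 563, 615 and 561. No library of one group overlapped another group. Relative to postnatal NSC, Adgrg1 fell by 0.63 ± 0.089 on the log2 scale in adult NSC (edgeR quasi-likelihood test, adjusted p = 0.000172) and by 0.38 ± 0.089 in OPC (adjusted p = 0.00444). The higher level in OPC than in adult NSC was small, 0.25 ± 0.089 with an adjusted p of 0.0315, and was not called (adjusted p 0.0561 to 0.103) without any 1 of 6 libraries, namely each of the 4 adult NSC libraries and OPC libraries 1 and 3.

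Among the latrophilins, receptors that bind FLRT proteins and teneurins across cell contacts, Adgrl3 was highest in OPC. Its levels were 99.3, 95.3, 106 and 90.2 CPM in postnatal NSC, 109.7, 103, 97.9 and 97.2 in adult NSC and 285, 313, 250.1 and 254 in OPC. The NSC groups overlapped and every OPC library was higher than every NSC library. The log2 fold change was 1.49 ± 0.089 against postnatal NSC, a rise of 2.82-fold (edgeR quasi-likelihood adjusted p = 7.42e-07), and 1.43 ± 0.089 against adult NSC (adjusted p = 1.99e-07). Between adult and postnatal NSC Adgrl3 was not called (0.06 ± 0.087, adjusted p = 0.575).

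Adgrl2 showed another order, with libraries at 212, 134, 70.7 and 208 CPM in postnatal NSC, 269, 263, 302 and 290.2 in adult NSC and 119, 60.5, 142 and 165 in OPC. It was lower in OPC than in adult NSC by 2.31-fold (adjusted p = 0.00913), and all adult libraries were above all others. The lowest libraries of the postnatal groups, 70.7 and 60.5 CPM, were those with low DNA replication genes, and the part of this in the result was not tested. The rise from postnatal to adult NSC (0.85 ± 0.33, adjusted p = 0.0458) was not called, with adjusted p from 0.054 to 0.123, without any 1 of 8 libraries: each adult NSC library, OPC libraries 1 and 3, and postnatal NSC libraries 2 and 3. Adgrl1, the third latrophilin, ranged from 198 to 219 CPM in postnatal NSC, from 165 to 190.3 in adult NSC and from 231 to 289 in OPC. Its log2 fold change was 0.51 ± 0.083 in OPC against adult NSC (adjusted p = 0.000291) and 0.30 ± 0.083 against postnatal NSC (adjusted p = 0.0104), where leaving out OPC library 1 gave 0.22 with an adjusted p of 0.0604. The fall of Adgrl1 with age (-0.21 ± 0.083, adjusted p = 0.0471) was not called, with adjusted p from 0.0515 to 0.151, without any 1 of 7 libraries: each adult NSC library, OPC library 4 and postnatal NSC libraries 1 and 2.

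The brain-specific angiogenesis inhibitor receptors, Adgrb1, Adgrb2 and Adgrb3, were all lower in adult than in postnatal NSC. Adgrb1, a receptor for apoptotic cells that signals through Elmo1 and Dock1, stood at 148, 147, 147 and 125 CPM in postnatal NSC, 49.1, 50.04, 52.3 and 51.3 in adult NSC and 164, 160.2, 129 and 127 in OPC. Adult libraries lay in a narrow range far below the others, while postnatal NSC and OPC overlapped. Adgrb1 fell by 1.48 ± 0.098 on the log2 scale with age (edgeR quasi-likelihood adjusted p = 7.24e-07) and was 2.86-fold higher in OPC than in adult NSC (adjusted p = 2.79e-07). Against postnatal NSC the OPC value was 0.04 ± 0.096 (adjusted p = 0.784). Adgrb3, which binds C1ql proteins, stood at 55.3, 49.1, 56.9 and 52.6 CPM in postnatal NSC, 36.0, 32.6, 39.2 and 32.1 in adult NSC and 87.9, 60.5, 85.3 and 88.7 in OPC. The 3 groups did not overlap and rose in the order adult NSC, postnatal NSC, OPC. Its log2 fold changes were -0.61 ± 0.12 for adult against postnatal NSC (adjusted p = 0.00138), 0.59 ± 0.12 for OPC against postnatal NSC (adjusted p = 0.00178) and 1.20 ± 0.12 for OPC against adult NSC (adjusted p = 8.57e-06). Adgrb2 ranged from 203 to 266 CPM in postnatal NSC, from 159.8 to 180.3 in adult NSC and from 156 to 244 in OPC. It fell by 0.50 ± 0.13 on the log2 scale with age (adjusted p = 0.00641) and was called in neither OPC comparison, although against postnatal NSC it was called without OPC library 1 (-0.38, adjusted p = 0.0326) or postnatal NSC library 3 (-0.33, adjusted p = 0.0455), and against adult NSC without OPC library 2 (0.36, adjusted p = 0.015).

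Adgrg6 and Adgre5 ran the other way, highest in adult NSC and lowest in OPC. Adgrg6 (GPR126), best known for driving myelination by Schwann cells and for binding collagen IV, laminin-211 and the prion protein, stood at 59.7, 40.7, 18.6 and 50.4 CPM in postnatal NSC, 108, 106, 105 and 105 in adult NSC and 16.4, 5.55, 23.6 and 22.3 in OPC. Adult libraries were tightly grouped above all others, and the postnatal NSC and OPC libraries overlapped. Adgrg6 rose by 1.32 ± 0.39 on the log2 scale from postnatal to adult NSC (adjusted p = 0.0129). In OPC it fell by 1.33 ± 0.39 relative to postnatal NSC (adjusted p = 0.0158) and by 2.65 ± 0.41, or 6.26-fold, relative to adult NSC (adjusted p = 0.000211). The call between OPC and postnatal NSC was lost when only those 8 libraries were fitted (adjusted p = 0.0517). Its lowest libraries, 18.6 CPM (postnatal NSC) and 5.55 CPM (OPC), were again those with low DNA replication genes, whose part was not tested.

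Adgre5 (CD97), a receptor for CD55 and Thy1, stood at 24.0, 24.7, 9.47 and 26.6 CPM in postnatal NSC, 49.1, 43.7, 37.3 and 43.2 in adult NSC and 3.00, 2.41, 4.32 and 2.74 in OPC. None of the groups overlapped. Adgre5 fell by 2.78 ± 0.30 on the log2 scale in OPC relative to postnatal NSC (6.84-fold, edgeR quasi-likelihood adjusted p = 2.59e-05) and by 3.81 ± 0.31 relative to adult NSC (14.0-fold, adjusted p = 1.43e-06). With age it rose by 1.03 ± 0.27 (adjusted p = 0.00682). As 23.8% of its exonic bases lie opposite Ddx39 and the strand setting of the counting is not given in the sources used here, its level is uncertain to that extent.

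Adgrv1, the very large receptor of hair cells and photoreceptors that is mutated in Usher syndrome, was lower in OPC than in either NSC group. Its libraries stood at 40.0, 46.4, 66.8 and 42.0 CPM in postnatal NSC, 54.6, 69.3, 41.3 and 60.5 in adult NSC and 19.2, 10.2, 22.7 and 18.7 in OPC. Every OPC library was below every NSC library, while the NSC groups overlapped. The fall was 1.47 ± 0.25 on the log2 scale against postnatal NSC (adjusted p = 0.000503) and 1.68 ± 0.25 against adult NSC (adjusted p = 0.000148), and the NSC groups were not called different (0.21 ± 0.24, adjusted p = 0.476). Over all alternative runs the value with age went from 0.093 to 0.396, with adjusted p from 0.0408, a call, to 0.778 by edgeR or DESeq2.

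The 3 receptors with an Adgra symbol changed little. Adgra3 was level, at 106 ± 10.1 CPM (SD, n = 4) in postnatal NSC, 105 ± 4.04 in adult NSC and 109 ± 0.442 in OPC, with log2 fold changes from -0.01 to 0.05 and adjusted p of 0.565 or more in edgeR's quasi-likelihood test. Adgra2 (GPR124), which works with Reck in the response to Wnt7, was low, with 1.48 to 2.71 CPM in postnatal NSC, 2.65 to 3.66 in the adult cells and 2.04 to 5.47 in OPC, and no comparison was called (adjusted p = 0.105 to 0.678), although without OPC library 2 the value in OPC against postnatal NSC was 0.79 (adjusted p = 0.035). Adgra1 ranged from 4.98 to 7.69 CPM in postnatal NSC, from 7.32 to 11.5 in adult NSC and from 7.30 to 11.3 in OPC. It was called higher in adult than in postnatal NSC (0.59 ± 0.20, adjusted p = 0.0258), a call lost, with adjusted p from 0.0521 to 0.0997, without any 1 of adult NSC libraries 2 and 4 and postnatal NSC libraries 2 and 4. In OPC against postnatal NSC it was not called (0.44 ± 0.20, adjusted p = 0.0861), and without postnatal NSC library 3 it was (0.56, adjusted p = 0.0379).

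**Figure D2:**
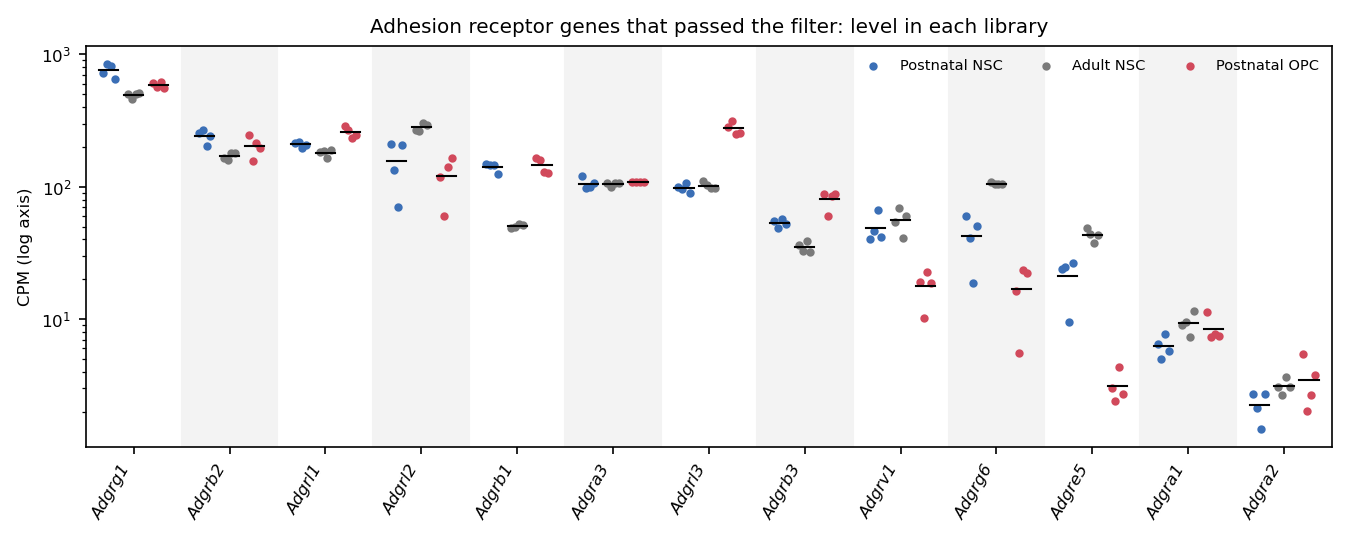
Level of the adhesion receptors that passed the filter, in CPM on a log axis (y) for each gene (x); points are single libraries, colours the 3 groups of 4 libraries, and bars the group means. Adgrg1 is highest in every group, the adult NSC points of Adgrb1 lie below all others, and the OPC points of Adgre5 lie below all others.

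Known ligands and partners of the adhesion receptors were taken from a list of 36 genes, of which 32 were tested. In OPC against postnatal NSC 11 were higher and 13 lower, with a median log2 fold change of 0.03. In adult against postnatal NSC 6 were higher and 14 lower (median -0.41), and in OPC against adult NSC 13 were higher and 10 lower (median 0.06). These counts are read beside the shares of all genes given above and carry no test of their own.

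On the side of Adgrg1, its ligand Tgm2 stood at 8.62, 16.4, 11.6 and 10.2 CPM in postnatal NSC, 10.0, 10.6, 7.66 and 10.9 in adult NSC and 1.21, 0.530, 1.73 and 1.44 in OPC. Tgm2 was 9.66-fold lower in OPC than in postnatal NSC (-3.27 ± 0.32 in log2 units, with an adjusted p of 1.26e-05 by edgeR's quasi-likelihood test) and 8.06-fold lower than in adult NSC (adjusted p = 1.1e-05). The OPC libraries thus lay below all NSC libraries for this ligand. As 21.8% of the exonic bases of Tgm2 lie opposite Gm20412 and Rprd1b, its level is uncertain to that extent.

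The 3 FLRT genes, ligands shared by latrophilins and Unc5 receptors, were each higher in OPC than in postnatal NSC: Flrt1 by 2.47 ± 0.33 on the log2 scale (adjusted p = 0.000106), Flrt2 by 0.99 ± 0.14 (adjusted p = 0.000195) and Flrt3 by 1.67 ± 0.18 (adjusted p = 2.4e-05). Flrt2 and Flrt3 were named after their values were seen, to complete the family. Flrt3 had group means of 17.6, 28.3 and 55.9 CPM in postnatal NSC, adult NSC and OPC, and Flrt1 of 0.801, 0.565 and 4.45 CPM. Among the teneurins, Tenm2 rose to 11.5, 18.9, 7.78 and 10.2 CPM in OPC from 1.39, 2.18, 3.18 and 1.04 in postnatal NSC, a 6.21-fold difference (adjusted p = 0.000153). Tenm3 was highest in adult NSC, with a mean of 162 CPM against 73.5 in postnatal NSC (log2 fold change 1.14 ± 0.17, adjusted p = 0.000208), and Tenm1 rose with age from 0.641 to 2.24 CPM (adjusted p = 0.00153).

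The Unc5 receptors, which bind netrin and FLRT proteins, had opposite orders. Unc5c stood at 8.02, 9.30, 12.1 and 4.37 CPM in postnatal NSC, 1.26, 2.08, 1.69 and 1.23 in adult NSC and 53.1, 77.8, 49.2 and 48.5 in OPC, and was 36.3-fold higher in OPC than in adult NSC (edgeR quasi-likelihood adjusted p = 2.46e-07). Unc5b stood at 23.7, 22.5, 9.12 and 31.2 CPM in postnatal NSC, 80.4, 78.1, 71.8 and 88.2 in adult NSC and 2.90, 2.53, 4.67 and 4.56 in OPC, and was 21.8-fold lower in OPC than in adult NSC (adjusted p = 1.03e-06). Neither gene had overlapping libraries between OPC and adult NSC. Unc5d was also higher in OPC than in postnatal NSC (2.11 ± 0.27, adjusted p = 7.07e-05), and Unc5a higher in adult than in postnatal NSC (1.43 ± 0.19, adjusted p = 0.00012).

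C1ql1, a secreted ligand of Adgrb3, was lowest in adult NSC. Its libraries stood at 17.8, 18.8, 26.7 and 7.80 CPM in postnatal NSC, 0.273, 0.572, 0.563 and 0.370 in adult NSC and 16.7, 47.7, 17.5 and 10.7 in OPC. It was 39.4-fold lower in adult than in postnatal NSC (adjusted p = 4.14e-05) and 51.4-fold higher in OPC than in adult NSC (adjusted p = 1.19e-05). Elmo1, a partner of Adgrb1, was also lower in adult NSC, at 30.0 CPM against 65.4 in postnatal NSC and 72.1 in OPC (log2 fold change with age -1.13 ± 0.23, adjusted p = 0.00153), and was named after its values were seen. Between OPC and postnatal NSC, edgeR called neither Elmo1 (0.14 ± 0.22, adjusted p = 0.623) nor the other partner, Dock1 (-0.39 ± 0.22, adjusted p = 0.179). Rtn4rl1, a Nogo receptor relative, was lower in OPC than in postnatal NSC (-2.08 ± 0.57, adjusted p = 0.00988).

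The partners of Adgrg6 and Adgre5 did not share 1 order. Lama2, the alpha chain of laminin-211, fell by 2.19 ± 0.29 on the log2 scale in OPC relative to postnatal NSC (adjusted p = 0.000113), and between the NSC groups it was not called. Col4a1 was highest in postnatal NSC, with a mean of 31.0 CPM, and had 8.65 in adult NSC and 7.47 in OPC. Its fall with age was 1.84 ± 0.44 (adjusted p = 0.0042), where Adgrg6 rose. Thy1, bound by Adgre5, fell by 1.95 ± 0.56 with age (adjusted p = 0.0114), where Adgre5 rose, a call lost when the level of Ddx3y, a Y-linked gene, was a covariate (adjusted p = 0.0707). Cd55 was under 1 CPM in each group, with means of 0.534, 0.402 and 0.403 CPM, and was not called in any comparison.

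**Figure D3:**
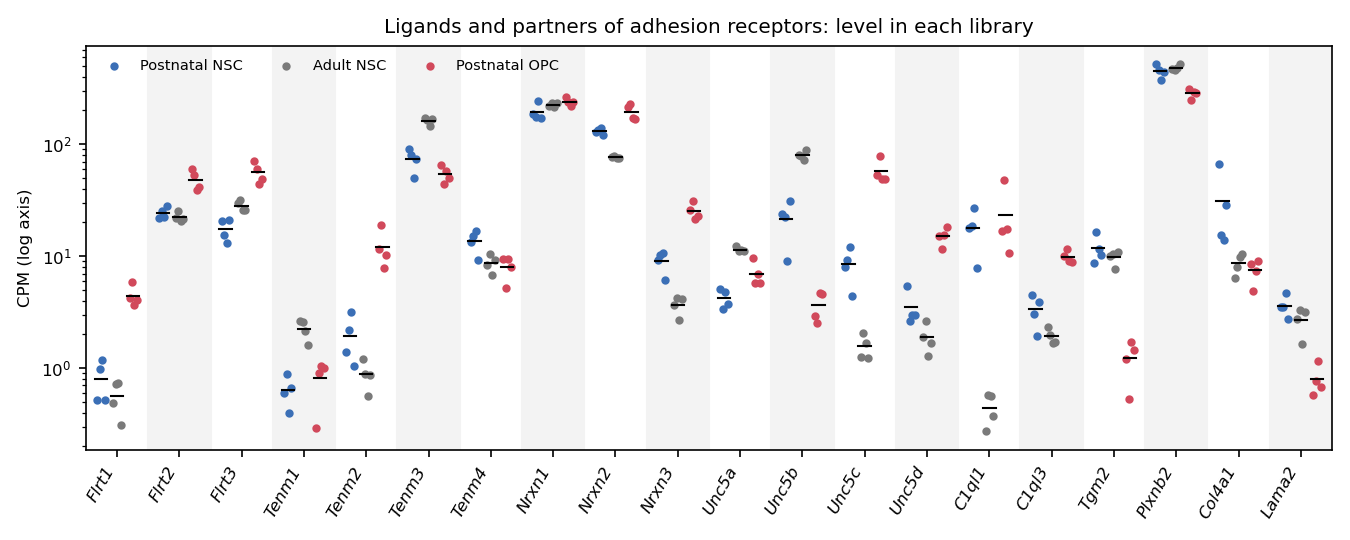
Level of ligands and partners of adhesion receptors, in CPM on a log axis (y) for each gene (x); points are single libraries, colours the 3 groups of 4 libraries, and bars the group means. Unc5c points are highest in OPC and lowest in adult NSC, and Unc5b points are highest in adult NSC and lowest in OPC.

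The 3 Celsr genes, cadherin-type adhesion receptors that the symbol rule does not take, were examined beside the set, and 2 of the 3 were lower and none higher in OPC than in postnatal NSC. Celsr1, a planar cell polarity gene, had a mean of 66.0 CPM in postnatal NSC and fell to 13.8 in adult NSC and 13.9 in OPC (log2 fold changes -2.26 ± 0.43 and -2.25 ± 0.43, edgeR quasi-likelihood adjusted p = 0.00108 and 0.00121). Celsr2 was lower in OPC than in postnatal NSC (-0.75 ± 0.085, adjusted p = 3.46e-05).

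Among the other receptors called higher in OPC than in postnatal NSC, the largest rises were in Gpr27, Gpr149 and Gpr85. Against adult NSC the largest were in Gpr149, Gpr27 and Gpr75. Gpr149, an orphan receptor, stood at 1.96, 2.14, 4.23 and 0.423 CPM in postnatal NSC, 0, 0, 0.0563 and 0.0617 in adult NSC and 6.44, 15.3, 4.15 and 3.27 in OPC. Adult NSC held 2 counts in all over the 4 libraries, against 387 in postnatal NSC and 648 in OPC. By counts scaled to library size, postnatal NSC exceeded adult NSC 78.0-fold (95% exact interval 21.5 to 647) and OPC exceeded adult NSC 278-fold (76.7 to 2300.0), and these intervals cover counting error only. The groups of OPC and postnatal NSC overlapped, at 3.27 to 15.3 and 0.423 to 4.23 CPM. That difference (1.74 ± 0.60, adjusted p = 0.0325) rested on single libraries: it was 1.05 without OPC library 2 (adjusted p = 0.14), and its adjusted p ran from 0.0549 to 0.14 without any 1 of OPC libraries 1 and 2 and postnatal NSC libraries 1 and 2. The fitted log2 fold change of OPC against adult NSC was 7.81 ± 1.05 and 7.16 without OPC library 2, both dependent on how the near-zero adult level is handled.

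Gpr27, Gpr85 and Gpr173 form the SREB family, orphan receptors conserved in the brain. Gpr85 stood at 6.18, 7.67, 9.29 and 6.39 CPM in postnatal NSC, 4.31, 5.04, 4.11 and 4.63 in adult NSC and 21.6, 30.1, 19.8 and 21.7 in OPC. The groups did not overlap. Gpr85 was 3.16-fold higher in OPC than in postnatal NSC (1.66 ± 0.17 in log2 units, with an adjusted p of 1.75e-05 by edgeR's quasi-likelihood test), 5.15-fold higher than in adult NSC (adjusted p = 8.13e-07) and lower in adult than in postnatal NSC (-0.71 ± 0.17, adjusted p = 0.00477). Gpr27 was lower in level, with 1.02, 0.807, 1.03 and 0.472 CPM in postnatal NSC, 0.273, 0.156, 0.338 and 0 in adult NSC and 3.92, 4.08, 3.23 and 3.17 in OPC. It kept the same order without overlap, with 2.11 ± 0.39 for OPC against postnatal NSC (adjusted p = 0.000944), -2.07 ± 0.50 for adult against postnatal NSC (adjusted p = 0.00425) and 4.18 ± 0.49 for OPC against adult NSC (adjusted p = 2.41e-05). Gpr173, named after its values were seen, ranged from 16.4 to 30.0 CPM in postnatal NSC and from 18.3 to 24.2 in OPC, and was lower in adult NSC, at 11.5 to 15.6 CPM (-0.63 ± 0.19, adjusted p = 0.0142).

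Gpr75, described as a receptor for the lipid 20-HETE, was scarce in adult NSC. Its levels were 3.45, 1.93, 2.08 and 3.18 CPM in postnatal NSC, 0.109, 0.364, 0.338 and 0.679 in adult NSC and 4.21, 5.06, 5.82 and 4.32 in OPC. Every adult library was below every other library, and every OPC library above every postnatal NSC library. Gpr75 fell by 2.84 ± 0.39 on the log2 scale with age (adjusted p = 0.00013) and was 13.1-fold higher in OPC than in adult NSC (adjusted p = 1.1e-05). Its rise from postnatal NSC to OPC (0.87 ± 0.31, adjusted p = 0.0394) was not called, with adjusted p from 0.0535 to 0.124, without any 1 of 8 libraries: adult NSC libraries 2 and 3, each OPC library, and postnatal NSC libraries 2 and 3.

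A further group shared the order adult NSC, postnatal NSC, OPC or held level between the postnatal groups or, for Gpr45, between the NSC groups. Gpr155, a cholesterol-sensing protein of the lysosome membrane, stood at 8.87, 10.6, 14.1 and 7.36 CPM in postnatal NSC, 4.80, 4.31, 6.25 and 4.38 in adult NSC and 21.7, 21.8, 20.2 and 20.8 in OPC. Its groups did not overlap, with 1.05 ± 0.19 for OPC against postnatal NSC (edgeR quasi-likelihood adjusted p = 0.000724) and -1.05 ± 0.19 for adult against postnatal NSC (adjusted p = 0.000847). Gpr137b, also a lysosomal membrane protein, ranged from 24.9 to 48.7 CPM in postnatal NSC, from 13.0 to 13.8 in adult NSC and from 37.6 to 46.1 in OPC. It fell by 1.44 ± 0.17 with age (adjusted p = 5.12e-05) and was not called between OPC and postnatal NSC (0.19 ± 0.16, adjusted p = 0.352), although it was called without postnatal NSC library 3 (0.36, adjusted p = 0.0424). Part of its sequence is shared with a pseudogene. Gpr153 had means of 10.5, 2.48 and 9.21 CPM in postnatal NSC, adult NSC and OPC and fell by 2.08 ± 0.28 with age (adjusted p = 0.000118). Gpr165 had means of 3.20, 1.09 and 5.42 CPM and fell by 1.55 ± 0.37 with age (adjusted p = 0.004). In OPC against postnatal NSC it was 0.76 ± 0.34 (adjusted p = 0.0832), and 1.18 without postnatal NSC library 3 (adjusted p = 0.0042). Gpr45 was level between the NSC groups, at 2.76 to 4.20 and 2.95 to 3.88 CPM, and higher in OPC, at 6.51 to 8.28 CPM (1.11 ± 0.17 against postnatal NSC, adjusted p = 0.000291). Gpr83, a receptor low in every group, had means of 0.900, 0.367 and 1.73 CPM. It was higher in OPC than in adult NSC (2.23 ± 0.46, adjusted p = 0.00155), and against postnatal NSC it was called only without OPC library 4 (1.17, adjusted p = 0.0289). Its fall with age (-1.29 ± 0.46, adjusted p = 0.0305) was not called, with adjusted p from 0.0563 to 0.0818, without any 1 of adult NSC libraries 1 to 3 and postnatal NSC libraries 1 to 3.

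The class C orphans moved apart. Gpr179, known from the retina, where it anchors a signalling complex of bipolar cells, stood at 9.31, 17.3, 17.0 and 10.1 CPM in postnatal NSC, 6.82, 8.47, 5.40 and 6.60 in adult NSC and 1.79, 2.32, 1.96 and 1.25 in OPC. The groups did not overlap and fell in that order. Gpr179 fell by 2.87 ± 0.27 on the log2 scale in OPC relative to postnatal NSC (7.31-fold, edgeR quasi-likelihood adjusted p = 1.06e-05), by 1.89 ± 0.27 relative to adult NSC (adjusted p = 0.000108) and by 0.98 ± 0.25 with age (adjusted p = 0.00583). Gpr158, its close relative, described as a metabotropic glycine receptor, went the other way, with 6.11, 2.91, 4.41 and 2.78 CPM in postnatal NSC, 1.86, 1.92, 2.20 and 1.48 in adult NSC and 7.31, 12.2, 9.74 and 5.62 in OPC. It was higher in OPC than in postnatal NSC (1.11 ± 0.29, adjusted p = 0.00831), where 1 pair of libraries overlapped, and than in adult NSC (2.22 ± 0.31, adjusted p = 0.000104).

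Gpr3, which activates Gs by itself and keeps oocytes in meiotic arrest, stood at 2.43, 2.39, 8.46 and 2.11 CPM in postnatal NSC, 1.15, 0.987, 0.788 and 0.864 in adult NSC and 0.678, 0.367, 0.749 and 0.432 in OPC. All postnatal NSC libraries were above all others, and library 3, with low DNA replication genes, was far above the rest. The log2 fold change of OPC against postnatal NSC was -2.80 ± 0.48 (adjusted p = 0.000617) and -2.07 without postnatal NSC library 3 (adjusted p = 0.000104). With age it was -2.02 ± 0.46 (adjusted p = 0.00319) and -1.28 without that library (adjusted p = 0.00197). The difference between OPC and adult NSC (-0.78 ± 0.51, adjusted p = 0.219) was called only when that library was left out (-0.78, adjusted p = 0.0304). The related Gpr6 and Gpr12 did not pass the filter, with 33 and 15 counts over the postnatal NSC libraries.

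Gpr4, a proton sensor, was low. It ranged from 1.04 to 2.10 CPM in postnatal NSC, from 0.338 to 0.740 in adult NSC and from 0.577 to 0.692 in OPC, and was lower in adult NSC (-1.53 ± 0.31, adjusted p = 0.00167) and in OPC (-1.28 ± 0.30, adjusted p = 0.00459) than in postnatal NSC.

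Gpr37l1 and Gpr37, a pair of receptors linked to prosaposin, the first typical of astrocytes and the second of oligodendrocytes, differed in level and in pattern. Gpr37l1 stood at 36.0, 34.9, 35.4 and 21.1 CPM in postnatal NSC, 38.2, 39.7, 32.1 and 36.0 in adult NSC and 30.0, 11.5, 14.0 and 16.3 in OPC. OPC library 1 overlapped the postnatal NSC libraries, and all OPC libraries were below all adult NSC libraries. Gpr37l1 fell by 1.02 ± 0.26 on the log2 scale in OPC relative to adult NSC (edgeR quasi-likelihood adjusted p = 0.00642). Relative to postnatal NSC the value was -0.83 ± 0.26 (adjusted p = 0.0213), and the call was lost without OPC library 3 or 4 (adjusted p from 0.056 to 0.0619) and without postnatal NSC library 3 and OPC library 2 together (adjusted p = 0.0668). The summed level of 6 astrocyte markers was 1570 to 2690 CPM in postnatal NSC, 1910 to 2000 in the adult cells and 1160 to 2120 in OPC. Their mean log2(CPM + 0.5) was 6.21 to 7.78, 5.89 to 6.07 and 5.72 to 6.59 in these groups. Of the 6, 3 were lower and none higher with age, and likewise in OPC against postnatal NSC. Against adult NSC, 2 were higher and 2 lower in OPC. The part of these markers in the result for Gpr37l1 was not tested. Gpr37 was low, at 2.58 to 4.00 CPM in postnatal NSC, 3.55 to 5.35 in the adult cells and 2.37 to 5.76 in OPC, and no comparison was called (adjusted p = 0.205 to 0.862). Myelin and mature oligodendrocyte genes, 7 in the list, summed to 335 to 1060 CPM in postnatal NSC, 144 to 181 in the adult cells and 264 to 558 in OPC. Psap, which encodes prosaposin, was far more abundant, with means of 795, 609.8 and 582 CPM, and fell by 0.45 ± 0.087 in OPC (adjusted p = 0.00136) and by 0.38 ± 0.087 in adult NSC (adjusted p = 0.00321) relative to postnatal NSC.

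Several genes of the set with steady or small differences were among the better expressed. Gpr161, a receptor of the primary cilium that restrains Hedgehog signalling, stood at 41.4, 45.3, 58.5 and 35.5 CPM in postnatal NSC, 40.2, 40.2, 40.1 and 39.7 in adult NSC and 59.6, 66.5, 53.2 and 48.3 in OPC. It was higher in OPC than in adult NSC (0.51 ± 0.14, edgeR quasi-likelihood adjusted p = 0.01), and the other comparisons were not called. Against postnatal NSC (0.33 ± 0.14, adjusted p = 0.0703) it was called without postnatal NSC library 3 (0.48, adjusted p = 0.00491) or OPC library 4 (0.41, adjusted p = 0.0443). Gpr19 ranged from 41.2 to 54.7 CPM in postnatal NSC, from 39.6 to 43.5 in adult NSC and from 28.2 to 35.1 in OPC, with all OPC libraries lowest (-0.60 ± 0.11 against postnatal NSC, adjusted p = 0.000693). With age Gpr19 was called lower only without postnatal NSC library 4 (-0.32, adjusted p = 0.0195). Gpr108, a protein of the Golgi, was lower in adult NSC (-0.60 ± 0.15, adjusted p = 0.00543) and in OPC (-0.72 ± 0.15, adjusted p = 0.002) than in postnatal NSC, at means of 19.9, 18.2 and 30.0 CPM. Of the fits without 1 library, only the fit without OPC library 2 called Gpr108 lower in OPC than in adult NSC (-0.30, adjusted p = 0.0359). Over all alternative runs its adjusted p went from 0.0232, a call, to 0.792 by edgeR or DESeq2. Gpr107, its relative, was named after its values were seen as a gene called in no comparison, with means of 81.6, 78.1 and 78.5 CPM and log2 fold changes from -0.06 to 0.01. Gpr89, a Golgi pH regulator, was slightly higher in OPC, at 36.0 to 42.7 CPM against 29.7 to 33.7 in postnatal and 30.5 to 33.0 in adult NSC (0.33 ± 0.082 against postnatal NSC, adjusted p = 0.00616). Its call against adult NSC (0.29 ± 0.083, adjusted p = 0.0118) was lost with no filter on low counts (adjusted p = 0.0545). Gpr63 was the single non-adhesion receptor called higher in adult than in postnatal NSC, at 3.27 to 4.67 against 1.80 to 3.01 CPM (0.65 ± 0.24, adjusted p = 0.0394), and that call was lost, with adjusted p from 0.055 to 0.103, without any 1 of 7 libraries: adult NSC libraries 1, 3 and 4, OPC library 1, and postnatal NSC libraries 1 to 3. In OPC against postnatal NSC it was not called (0.61 ± 0.24, adjusted p = 0.0582) except without OPC library 2 (0.76, adjusted p = 0.0113). The 9 other receptors that passed the filter and were not named lay between 0.307 CPM (Gpr21 in adult NSC) and 37.8 CPM (Gpr137 in postnatal NSC). Of these 9, 2 were lower in OPC than in postnatal NSC, 3 were lower in adult than in postnatal NSC, 2 were higher in OPC than in adult NSC, and no other call was made.

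**Figure D4:**
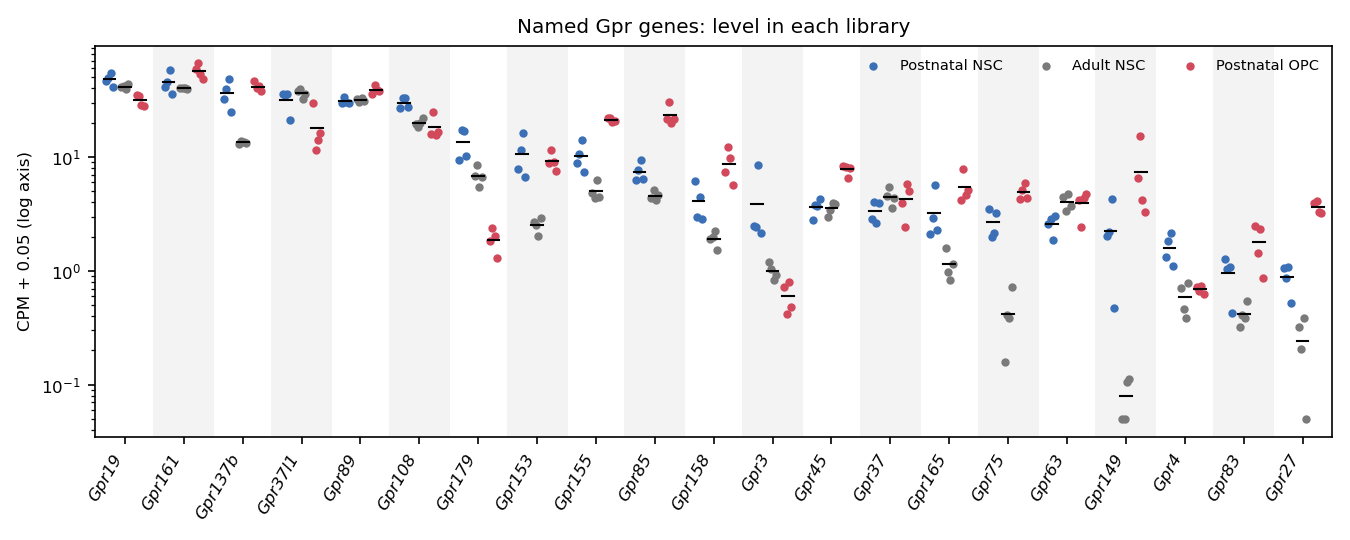
Level of the named receptors with a Gpr symbol, in CPM + 0.05 on a log axis (y) for each gene (x); points are single libraries, colours the 3 groups of 4 libraries, and bars the group means. The adult NSC points of Gpr149, Gpr27 and Gpr75 lie below all others, and the OPC points of Gpr179 lie below all others.

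Genes through which these receptors signal were counted from fixed lists, to be read beside the shares of all genes called (22.4% higher and 22.7% lower in OPC than in postnatal NSC, 25.2% and 27.9% with age, and 26.3% and 24.7% in OPC against adult NSC). Of 12 G protein alpha subunits tested, 5 were higher and 2 lower in OPC than in postnatal NSC, 4 were higher and 3 lower in adult than in postnatal NSC, and 5 were higher and 4 lower in OPC than in adult NSC. The 5 higher became 3 without OPC library 1, and the 2 lower became 1 without any 1 of 8 libraries: each adult NSC library, OPC libraries 2 and 4, and postnatal NSC libraries 2 and 3. Gnal, the Gs-type subunit of olfactory and striatal neurons, had means of 8.84, 2.66 and 32.7 CPM in postnatal NSC, adult NSC and OPC and was 3.70-fold higher in OPC than in postnatal NSC (adjusted p = 5.78e-05). Of 12 beta and gamma subunits tested, 3 were higher and 3 lower in OPC than in postnatal NSC, among them Gng11, which fell by 1.92 ± 0.39 on the log2 scale (adjusted p = 0.00174) and rose by 1.90 ± 0.35 with age (adjusted p = 0.000907). The 3 lower became 1 without adult NSC library 2, postnatal NSC library 2, OPC library 3 or OPC library 4, and without the last 3 of these 2 were higher. With age 5 of the 12 were higher and 4 lower, and in OPC against adult NSC 4 were higher and 3 lower. Of 8 adenylyl cyclases tested, 2 were higher and 1 lower in OPC than in postnatal NSC, none was higher and 2 were lower with age, and 4 were higher and none lower in OPC than in adult NSC. Without 1 library these counts ran from 2 to 3 and 1 to 2, at 0 and from 1 to 3, and from 4 to 5 and 0 to 1. Adcy5 had means of 13.7, 4.83 and 39.4 CPM, 1.52 ± 0.19 for OPC against postnatal NSC (adjusted p = 5.58e-05) and -1.50 ± 0.19 with age (adjusted p = 9.55e-05). Of 7 receptor kinases and arrestins, 2 were higher and 2 lower in OPC than in postnatal NSC: Grk3 fell by 1.86 ± 0.24 (adjusted p = 8.24e-05) and Grk5 rose by 1.26 ± 0.094 (adjusted p = 2.67e-06). Without 1 library, 1 to 3 of the 7 were higher and 1 or 2 lower, and Grk2, the other fall, was lost in 7 such fits (adjusted p up to 0.0949). With age 1 was higher and 1 lower (each 0 to 2 without 1 library), and in OPC against adult NSC 3 were higher (2 to 3) and 1 lower. Of 6 tested orphan, class C and leucine-rich repeat receptors outside the symbol rule, 2 were higher and 2 lower in OPC than in postnatal NSC, including Lgr5, a receptor for R-spondins, which had means of 0.786 and 4.81 CPM (2.61 ± 0.43, adjusted p = 0.000434).

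Receptors typical of microglia, macrophages and endothelial cells had few or no counts. Gpr34, a microglial receptor, had 1 count over the 4 postnatal NSC libraries, 3 in adult NSC and 0 in OPC, and a count of 0 allows up to 3. Gpr84, of activated microglia and macrophages, had 48, 5 and 1 counts, and Adgre1, the F4/80 antigen of macrophages, had 13, 0 and 3. The 10 microglia and macrophage markers summed to 16.4 to 39.7 CPM in postnatal NSC, 10.1 to 13.3 in the adult cells and 14.7 to 17.2 in OPC, and Cx3cr1 had no count in any group. One of these markers, P2ry12, was higher in OPC, at a mean of 1.56 CPM, than in postnatal NSC, at 0.266 (2.54 ± 0.59, adjusted p = 0.00417). Adgrf5 and Gpr182, receptors of endothelial cells, had no count in any library, and Adgrl4, another endothelial receptor, had 26, 34 and 19 counts over postnatal NSC, adult NSC and OPC. Gpr62, enriched in oligodendrocytes, had 39 counts in postnatal NSC, 18 in OPC and 0 in adult NSC. Against the limit of 3 counts over the adult group, Gpr62 was at least 5.24-fold higher in postnatal than in adult NSC, and Gpr25 at least 8.74-fold, from 65 against 0 counts. Markers of neurons and neuroblasts, 6 in the list, summed to 32.0 to 94.1 CPM in postnatal NSC, 16.8 to 23.1 in the adult cells and 82.2 to 233 in OPC, the same order as Gpr85, Gpr27, Gpr155 and Adgrb3, and their part in those results was not tested. The sums of postnatal NSC and OPC overlapped. The mean log2 level of the 7 OPC markers, given above, also had this order without overlap, while their sums overlapped between the NSC groups. The part of the OPC markers was not tested either.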

How the data were processed

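The libraries of the 12 cultures were made from poly(A) RNA with a kit that keeps strand, per the labels' protocols. The authors deposited read counts per gene without normalization, in 1 column per library. The submitters' processing notes list STAR, featureCounts 1.22.2 and FastQC, and the GRCm38 build. The annotation, the settings and how strand and multiply mapped reads were handled are not given in the sources used here, so genes that overlap or share sequence are less certain. Columns named NPC were matched to the samples titled NSC of the same age. Of 55401 identifiers 55141 were found in GENCODE M21 and 260 were not.

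The main test was made with edgeR 4.0.16 in R 4.3.3: filterByExpr by group (minimum count 10, minimum total 15; 16135 genes kept), TMM factors, and 1 quasi-likelihood fit over the 12 libraries, with two-sided tests and Benjamini-Hochberg adjustment. The common dispersion was 0.0513, a biological coefficient of variation of 22.6%. The SE is the fold change divided by the square root of F. The script was tested on simulated data. CPM per kilobase used the union of GENCODE exons. Library totals, from 16756231 to 54801726, limit what low genes can show.

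Named genes were the 8 largest called rises and falls in each comparison with at least 1 CPM and no overlap between groups, every adhesion receptor with at least 5 CPM, the 5 highest per length in each group, 16 receptors taken whatever their result, and up to 4 genes in each direction from every other list. The receptors and lists were chosen with earlier results of these data known. The list of 15 DNA replication genes was added after the data were seen. Alternatives were DESeq2 1.42.0, other scaling and filters, equal depth by thinning, fewer libraries, a replicate block, and the level of Ddx3y, a Y-linked gene, as a covariate. Values of 2 receptors that passed the filter enter the counts and are not reported here. Promoters came from RefSeq and were read in Python 3.11.15.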

Additional observations from a re-analysis of the deposited data

Results flagged for a closer look

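In 11 of the 104 groups of 4 libraries examined for the named receptors, 1 library lay far from the other 3 by Dixon's test; chance alone flags about 1 in 20 groups. Postnatal NSC library 3, which had low DNA replication genes, was low for Adgre5 (9.47 CPM, the others 24.0 to 26.6) and high for Gpr3 (8.46 CPM, the others 2.11 to 2.43). OPC library 2, the other library with low DNA replication genes, was low for Adgrb3 (60.5 CPM, the others 85.3 to 88.7) and high for Gpr108 (24.7 CPM, the others 15.6 to 16.5). Postnatal NSC library 4 was low for Adgrb1 (125 CPM, the others 147 to 148) and for Gpr37l1 (21.1 CPM, the others 34.9 to 36.0). Postnatal NSC library 2 was high for Gpr89 (33.7 CPM, the others 29.6 to 30.2). In adult NSC, library 2 was low for Adgra3 (98.6 CPM, the others 106 to 107) and for Adgrg1 (457 CPM, the others 500.3 to 508). In OPC, library 1 was high for Adgra1 (11.3 CPM, the others 7.30 to 7.67) and library 3 was low for Gpr45 (6.51 CPM, the others 8.02 to 8.28).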

How the results depend on the processing

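Of 74 called differences among the named receptors, 60 stayed called under every alternative run and none changed sign; 12 of the 14 others are named in the text. The number of receptors called higher in adult than in postnatal NSC was 5, from 2 to 5 without 1 library, and 3 with the Ddx3y covariate. With postnatal NSC library 3 and OPC library 2 left out together, 16 receptors were higher and 15 lower in OPC than in postnatal NSC. The share of all genes called in that run is not given here, so these counts are no result about the receptors.

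Replicate numbers are shared between groups, and libraries with the same number correlated between -0.363 and 0.325 in their deviations from the group means. Libraries with different numbers correlated between -0.413 and 0.414. Deviations within a group of 4 libraries depend on each other, so these values cannot decide whether a number marks the same litter. With a replicate block, 10 receptors were higher and 12 lower in OPC than in postnatal NSC, 4 and 24 in adult against postnatal NSC, and 20 and 8 in OPC against adult NSC. These counts too are given without the shares of all genes called in that run. The block ended the calls of Gpr75 (adjusted p = 0.0626) in OPC against postnatal NSC, of Gpr63 with age (0.065) and of Adgrg1 in OPC against adult NSC (0.0596), all by edgeR. With no filter, the calls of Adgrl1 (0.0563 in OPC against postnatal NSC, 0.0706 with age), Gpr75 (0.0638), Gpr63 (0.0859) and Adgrg1 (0.0785) ended too. With the Ddx3y covariate those of Gpr75 (0.366), Gpr37l1 (0.0888), Adgrl1 with age (0.0725), Adgrl2 (0.051), Gpr63 (0.06) and Gpr83 (0.0552) did.

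Values near 0 that were never called changed sign, and the cause was not tested. In OPC against postnatal NSC, leaving out 1 library gave -0.03 to 0.08 for Adgra3, -0.058 to 0.097 for Adgrb1 and -0.39 to 0.098 for Gpr153. The Ddx3y covariate gave -0.014 for Adgra3 and 0.227 for Gpr153, and Adgrb1 was at -0.00036 with no filter and -0.002 without postnatal NSC library 3 and OPC library 2 together. In adult against postnatal NSC, leaving out 1 library gave -0.091 to 0.02 for Adgra3, -0.019 to 0.101 for Adgrl3, -0.002 to 0.258 for Gpr37l1, -0.175 to 0.044 for Gpr45 and -0.02 to 0.068 for Gpr89. In OPC against adult NSC it gave -0.132 to 0.363 for Adgra2, -0.242 to 0.146 for Gpr37 and -0.147 to 0.143 for Gpr63, and without the same 2 libraries together Gpr37 was at 0.144 and Gpr63 at 0.142.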
